A study of Drosophila melanogaster with 3 samples.

Results

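The regions described here are weak entries that recur in the lists of Fru-GFP signal from Drosophila melanogaster larvae. The authors' pooled list holds 30000 regions, of which 8996 are in their thresholded list. The authors name these long lists as holding both peaks and background, and which of the weak regions are places of Fru-GFP occupancy was not tested. Of the other 21004 regions, 4222 had a summit within 100 bp in the list of each of the 3 biological replicates, and these are called recurrent weak regions. The remaining 16782 regions, found at that distance in fewer than 3 replicates, are called non-recurrent weak regions. All 4222 were selected on measured values, namely their signal value in the pooled list and their presence in each replicate list. Their signals, ranks and recurrence are therefore given as a description, and tests were run only on their position in genes and their DNA sequence.

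The 3 replicates form 1 group of whole wandering larvae of the third instar, with males and females pooled. The larvae came from the fru-MiMIC-GFP strain, in which an artificial exon in an intron of fru encodes GFP, so that the gene at its own locus makes a GFP fusion protein. Sonicated chromatin, which the labels size at 200 to 800 bp, was precipitated with an antibody to GFP. Which fru isoforms carry the tag is not given in the labels, whole animals mix all tissues, and no control sample was analysed here. A region can therefore be assigned to no isoform and no cell type.

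The fru gene encodes transcription factors with a BTB domain, through which such proteins pair with each other, and a zinc-finger end that differs between isoforms and recognises DNA. Sex-specific isoforms made from the distal promoter in neurons direct male courtship behaviour, and the isoforms made from other promoters are found in both sexes and are needed for viability. Chromatin immunoprecipitation followed by sequencing marks where such a protein sits, and each list gives the summit, the position of highest signal.

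The sequences under the recurrent weak regions show what these positions look like. Each line below is a pooled summit with 50 bases on either side of it, read on the plus strand of dm6 from the RefSeq Release 6 genome. Windows that overlap an annotated UTR were passed over. The first set is shown because its regions stand alone: they are among the strongest that lay more than 5000 bp from any thresholded summit, a pair each in promoters, introns and intergenic DNA. They are named by the gene with the nearest transcription start site (TSS). The windows are, in order, chr3L:11593976-11594076, chr2L:1911497-1911597, chr2L:7270446-7270546, chrX:3273758-3273858, chr3L:10904925-10905025 and chr2L:11950092-11950192. Capitals mark the words TATAAA and AAAAAA on either strand, which were more frequent under the recurrent weak summits than beside them; the Wdr62 and Aps windows hold neither.
lncRNA:CR45443: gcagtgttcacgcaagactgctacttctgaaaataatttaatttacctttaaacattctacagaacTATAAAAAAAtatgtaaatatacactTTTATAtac
Wdr62: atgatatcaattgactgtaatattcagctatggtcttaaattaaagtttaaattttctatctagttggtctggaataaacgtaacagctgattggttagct
Wnt4: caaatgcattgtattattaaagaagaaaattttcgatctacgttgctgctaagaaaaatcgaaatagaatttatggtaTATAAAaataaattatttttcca
dnc: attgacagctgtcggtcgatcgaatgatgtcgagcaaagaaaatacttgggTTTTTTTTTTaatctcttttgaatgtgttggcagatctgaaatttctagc
Aps: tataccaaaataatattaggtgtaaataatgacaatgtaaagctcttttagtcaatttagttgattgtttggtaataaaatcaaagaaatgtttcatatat
CG16964: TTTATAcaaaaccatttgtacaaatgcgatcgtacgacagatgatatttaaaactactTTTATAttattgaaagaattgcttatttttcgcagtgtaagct

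The second set holds the words with the largest odds among the 12 searched. It gives the best ranked of the regions eligible for printing, which leaves out stronger ones with the first word. Those with GGTCACAC, the core of the promoter element Motif 1, lay near sgl at pooled rank 9380 and in intergenic DNA 13618 bp from the TSS of CG10651 at pooled rank 15073. Those with TATCGATA, the DNA replication-related element (DRE), lay in an intron of Rgl and in an intron of gce, nearest to the TSS of asRNA:CR44961. The windows are chr3L:6965029-6965129, chr2L:20148491-20148591, chr3L:13918843-13918943 and chrX:15312359-15312459. Capitals mark these words and also TATAAA and AAAAAA on either strand.
sgl: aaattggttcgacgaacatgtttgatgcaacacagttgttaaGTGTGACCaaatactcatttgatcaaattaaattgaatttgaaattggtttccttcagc
CG10651: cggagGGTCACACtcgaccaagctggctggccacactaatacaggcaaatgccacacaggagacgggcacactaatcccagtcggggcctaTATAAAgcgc
Rgl: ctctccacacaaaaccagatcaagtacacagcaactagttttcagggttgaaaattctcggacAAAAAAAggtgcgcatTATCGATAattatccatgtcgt
asRNA:CR44961: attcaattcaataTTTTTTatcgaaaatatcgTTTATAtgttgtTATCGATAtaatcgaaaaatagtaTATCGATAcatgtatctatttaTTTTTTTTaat

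The third set shows the 6-base word with the largest odds of all, AGGGTA, whose capitals may read TACCCT on the plus strand. These are the best ranked of its regions eligible for printing, in an intron of pnt, nearest to the TSS of lncRNA:CR46090, and in an intron of kairos, at chr3R:23331863-23331963 and chrX:18341196-18341296. They were chosen after the values were seen.
lncRNA:CR46090: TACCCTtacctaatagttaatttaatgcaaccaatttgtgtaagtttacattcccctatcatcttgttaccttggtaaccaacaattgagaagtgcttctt
kairos: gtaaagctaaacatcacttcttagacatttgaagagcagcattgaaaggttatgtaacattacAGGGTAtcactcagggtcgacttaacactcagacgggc

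Recurrence fell off steadily along the pooled list, with no step at the threshold. Below the threshold, 1762 regions were matched in 0 replicates, 7332 in 1, 7688 in 2 and 4222 in 3, the last being 20.1% of 21004. Matches were found for 49.0% of the weak regions in replicate 1, for 55.0% in replicate 2 and for 64.5% in replicate 3. Positions within 100 bp of a summit of a replicate list make up 4.50% of the genome in each replicate. The pooled list was made from the same reads, so a match with a replicate is not independent of it. Of the thresholded peaks, 83.8% were found in all 3 replicates. No replicate summit matched 2 recurrent weak regions, and none was also within 100 bp of a thresholded summit. Pooled summits stood at least 199 bp apart, which left almost no room for such double matches.

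**Figure D1:**
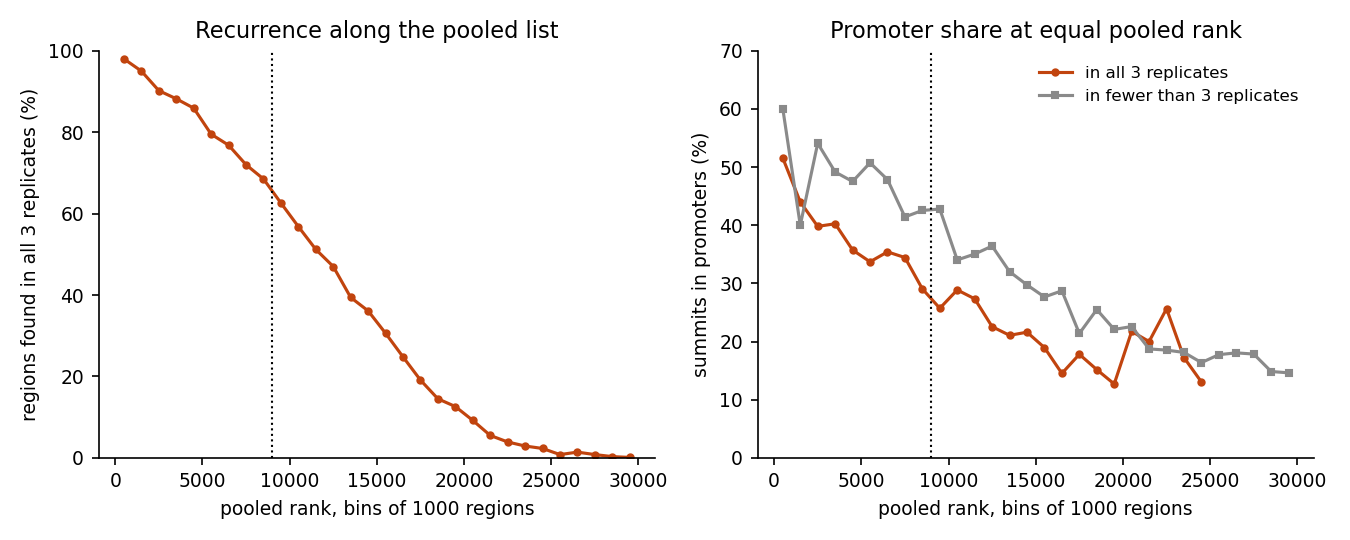
Left: the share of regions found in all 3 replicates against pooled rank, in bins of 1000 regions. Right: the share of summits in promoters for regions found in all 3 replicates and for regions found in fewer, in bins with at least 20 such regions. The dotted line is the last thresholded rank, 8996. Recurrence declines with rank, and between ranks 9001 and 10000 promoters hold 25.7% of the recurrent summits and 42.8% of the others.

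The pooled signal of the recurrent weak regions, a score of the authors' own, ran from 25.7 to 104.5 with a median of 70.7. That of the thresholded peaks started at 104.5 and had a median of 201.4. The −log10 q-value of the recurrent weak regions ran from 0.265 to 2.90, with a median of 1.61. Its lower quartile was 1.16, a q-value above 0.05, so many of these regions fall short of that level in the authors' own scoring. That of the non-recurrent weak regions had a median of 0.634. Their pooled rank had a median of 12853, and the last of them stood at rank 29008. The edge of the selection was narrow: the region just outside, in an intron of Agpat2 at rank 8997, had a signal of 104.5, and so did the peak just inside, near RFeSP at rank 8996.

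Within the replicates these regions were mostly middling and their order was loose. Their median rank was 14094.5 in replicate 1, 15831.5 in replicate 2 and 15203.5 in replicate 3, in lists of 30000. Replicate 1 placed 14.8% of them among its strongest 8996 regions, replicate 2 placed 9.43% and replicate 3 placed 7.58%. Only 16 of the 4222 stood that high in all 3 replicates, and 3050 (72.2%) stood that high in none. Spearman's rho of the signal between replicates was 0.226, 0.188 and 0.207 across the 4222 regions, against 0.736 to 0.778 across the 7538 thresholded peaks found in all 3. Selection on pooled signal narrows the range of the weak regions, and rho across regions is given as a description. The median distance from the pooled summit was 31 bp in replicate 1, 28 bp in replicate 2 and 15 bp in replicate 3, values that the selection held to 100 bp at most.

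The recurrent weak regions lay about as far from thresholded peaks as the non-recurrent ones, and most of those best placed in the replicates lay beside one. The median distance to the nearest thresholded summit was 2940.5 bp for recurrent and 3025 bp for non-recurrent weak regions. Beyond 5000 bp lay 36.7% of the recurrent and 37.1% of the non-recurrent ones, and within 250 bp 9.90% and 10.4%. These 418 recurrent ones stood at least 199 bp away, which is also the smallest gap between any summits of the pooled list. Of the 16 regions among the strongest of all 3 replicates, 14 belonged to this group. Among the 418, 202 (48.3%) stood among the strongest 8996 of at least 1 replicate, against 970 (25.5%) of the 3804 farther away.

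The leading example lay in the promoter of sgl, which encodes UDP-glucose dehydrogenase and whose sequence is printed above. Its region held rank 9380 in the pooled list. Its summit held rank 1885 in replicate 1, 853 in replicate 2 and 2466 in replicate 3, and a thresholded summit stood 243 bp away. The 10 regions with the best weakest replicate rank all lay 199 to 243 bp from a thresholded summit. They include promoters of Eip74EF, an ETS transcription factor induced by the moulting hormone ecdysone, of Eip63E, an ecdysone-induced protein kinase, of CHES-1-like, a forkhead factor, and of Coop, a corepressor of Wnt target genes. The region at CHES-1-like stood at pooled rank 16849, but held ranks 4842, 1881 and 3686 in replicates 1, 2 and 3. Another lay in an intron of ken, itself a BTB zinc-finger repressor, at pooled rank 9293 and ranks 2806, 4887 and 5923 in replicates 1, 2 and 3. Whether the pooled call split 1 broad site into a pair of summits at these genes was not tested.

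**Figure D2:**
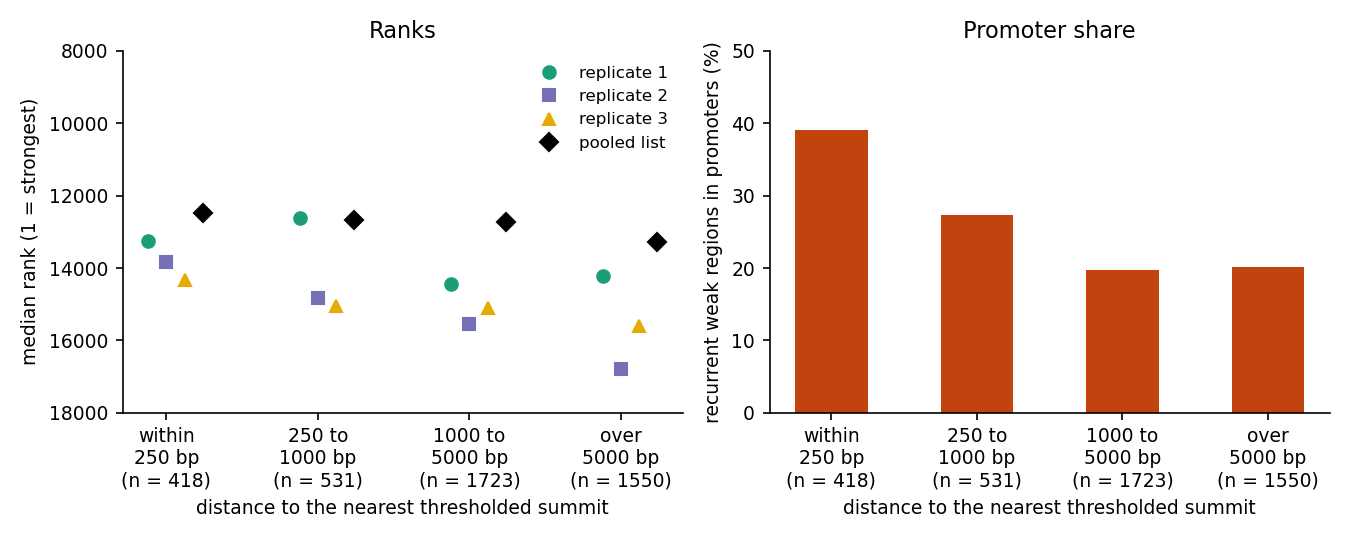
Left: median rank of the recurrent weak regions in the pooled list and in each replicate list, by distance to the nearest thresholded summit, with rank 1 at the top of the scale. Right: their promoter share in the same distance classes. Regions within 250 bp of a thresholded summit have a promoter share of 39.0%, against 20.2% beyond 5000 bp.

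Several of the strongest isolated regions ranked better than the median recurrent weak region in all 3 replicates. Those at Wnt4, dnc and CG16964 each stood among the strongest 8996 of at least 1 replicate. The region in an intron of Wnt4, a secreted signalling ligand, held ranks 10880, 12908 and 8444 in replicates 1, 2 and 3 and pooled rank 9018. That in an intron of dnc, the cyclic AMP phosphodiesterase gene known for its role in learning, held ranks 10676, 8690 and 8903 at pooled rank 9027. The intergenic region near CG16964 held ranks 6014, 9914 and 10359 at pooled rank 9002. The promoter region at lncRNA:CR45443 was placed high by 1 replicate alone: it held rank 5915 in replicate 3, but 23862 in replicate 1 and 22717 in replicate 2.

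Most of the 15 regions of highest pooled signal lay in introns or promoters, which hold 48.8% and 22.8% of all recurrent weak regions. Introns of Agpat2, an acyltransferase gene, of Gug, the Atrophin corepressor gene, and of Atet, an ABC transporter gene, held 3 of them. The promoter of Moe, encoding the membrane linker Moesin, of mip40, encoding a subunit of a Myb complex, and of Septin4 held others. The region at Septin4 lay 200 bp from a thresholded summit and had ranks 8077, 8925 and 9744 in replicates 1, 2 and 3. One lay in the 5' UTR of tkv, a receptor for the growth factor Dpp, with ranks 8520, 10376 and 9415. The promoter region at sli, which encodes the axon repellent Slit, held ranks 26202, 10037 and 8985. Elsewhere, the strongest region in a coding sequence was at CG5835 at pooled rank 9115. The strongest in other exons was in the long noncoding RNA gene lncRNA:CR46004, nearest to the start of the microRNA gene mir-276b, at pooled rank 9052. The strongest in a 3' UTR, where the genes msi and ymp overlap, was at pooled rank 9067.

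The fru gene itself held 5 recurrent weak regions beside 16 thresholded summits. One lay 315 bp from a fru TSS, at pooled rank 15155, with its 3 replicate summits 3, 4 and 3 bp away. Its ranks were low, 29432, 14127 and 16588 in replicates 1, 2 and 3, and its pooled −log10 q-value was 1.23. A thresholded summit stood 252 bp from it. The other 4 were intronic, with pooled ranks of 12385, 13674, 19982 and 22460. The first of these, at 3R position 18461206, held rank 7949 in replicate 1, 17440 in replicate 2 and 22972 in replicate 3. None of the 5 stood among the strongest 8996 of more than 1 replicate.

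Relative to the thresholded peaks, the recurrent weak regions were displaced from promoters into introns and intergenic DNA. Promoters, within 500 bp of a TSS, held 961 (22.8%, 95% interval 21.5 to 24.1) of the recurrent weak regions and 3606 (40.1%, 39.1 to 41.1) of the thresholded peaks. The odds ratio was 0.440, with an adjusted p of 4.29e-87 by Fisher's exact test over 14 class comparisons. Introns held 2062 (48.8%) against 3667 (40.8%), with an odds ratio of 1.39 and an adjusted p of 1.51e-17. Intergenic summits made up 1023 (24.2%) against 1490 (16.6%), with an odds ratio of 1.61 and an adjusted p of 4.99e-24. Coding sequence held few of either, 43 (1.02%) against 17 (0.189%), with an odds ratio of 5.43 and an adjusted p of 1.36e-09. The share in 3' UTRs was 1.40% against 0.767%, with an odds ratio of 1.83 and an adjusted p of 0.00188. The shares in 5' UTRs and in other exons passed no threshold. The median distance to a TSS was 2360 bp for the recurrent weak regions and 970.5 bp for the thresholded peaks. At the replicates' own summits for the same regions the promoter share was 22.8% ± 0.0237 (SD, n = 3), a spread that the selection on summit distance keeps small.

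**Figure D3:**
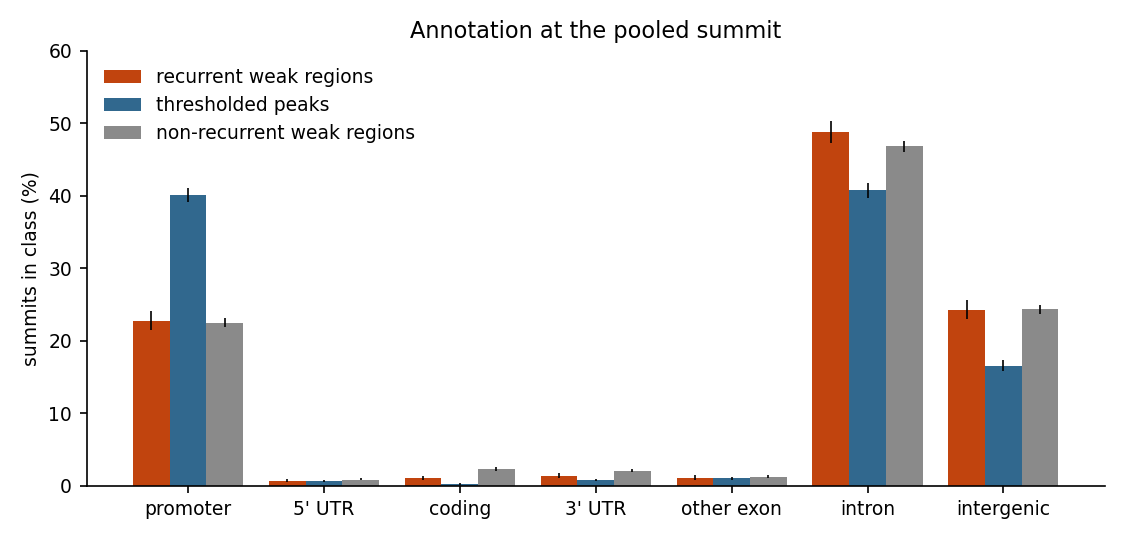
Share of summits in each annotation class for recurrent weak regions, thresholded peaks and non-recurrent weak regions, with 95% Wilson intervals as bars. The recurrent weak regions have a promoter share of 22.8%, against 40.1% for thresholded peaks and 22.5% for non-recurrent weak regions.

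Set against the non-recurrent weak regions, the answer turned on pooled rank. Taken whole, the promoter shares were alike, 22.8% against 22.5%, with an odds ratio of 1.02 and an adjusted p of 0.776. Coding sequence held 1.02% of the recurrent and 2.29% of the non-recurrent weak regions, with an odds ratio of 0.438 and an adjusted p of 6.33e-08. The recurrent weak regions ranked higher, with a median pooled rank of 12853 against 21453.5, and promoter share falls along the list. When regions were compared only within bins of 1000 pooled ranks, the Mantel-Haenszel odds ratio for promoters was 0.634, with an adjusted p of 6.20e-22. Combined over all bins, then, a summit found in all 3 replicates was less often in a promoter at equal rank, but not all along the list. Between the threshold and rank 12000, promoters held 465 of 1709 recurrent weak regions (27.2%) and 478 of 1295 non-recurrent ones (36.9%). In the next bands of rank the shares were 21.2% against 31.1%, then 15.2% against 24.3%. In the last band, taken whole, the order was the reverse. Of the 272 recurrent weak regions of poorest pooled rank, promoters held 63 (23.2%). Of the 9728 non-recurrent ones in the same band they held 1721 (17.7%). Introns (odds ratio 1.21, adjusted p 6.37e-06) and intergenic DNA (1.28, adjusted p 4.17e-07) held more of the recurrent ones at equal rank, and the coding difference was gone (1.20, adjusted p 0.504).

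The promoter result at equal rank also depended on the distance that counts as a match. With a match at 50 bp the odds ratio within rank bins was 0.695 (adjusted p 4.52e-09), and with a match at 250 bp it was 0.947 (adjusted p 0.191). The lower promoter share of recurrent regions was therefore found at the strict distances and passed no threshold at 250 bp.

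Promoter share varied among the recurrent weak regions themselves. It was 39.0% of the 418 regions within 250 bp of a thresholded summit, 27.3% of the 531 at 250 to 1000 bp, 19.7% of the 1723 at 1000 to 5000 bp and 20.2% of the 1550 beyond. The 845 regions of best pooled rank had a promoter share of 26.2% and the 845 of poorest rank 18.1%. Intergenic summits showed the opposite order, with 14.6% of the regions within 250 bp and 29.5% of those beyond 5000 bp.

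The recurrent weak regions lay on all chromosome arms in near proportion to the stronger peaks. The X chromosome held 872 (20.7%), against 19.0% of the thresholded peaks, with an odds ratio of 1.11 and an adjusted p of 0.0862. Against the non-recurrent weak regions (18.5%) the odds ratio was 1.14, with an adjusted p of 0.0122. Per megabase this is 37.0 recurrent weak regions on the X, against 26.7 on 2R and 33.1 on 2L. The X also stood above 2R per megabase among the thresholded peaks (72.7 against 63.2) and the non-recurrent weak regions (132 against 110). On 3L, the share was 20.9% against 23.1% of the non-recurrent ones, with an odds ratio of 0.879 and an adjusted p of 0.0122. Neither difference was stable: of 8 alternatives, the X call was kept in 4 and the 3L call in 2. Both were lost on the dm3 lists (adjusted p 0.208 for both), with a match at 50 bp (0.228 for both), with the strongest 15000 of each replicate (0.848 for both) and without replicate 3 (0.150 for both). The 3L call was also lost at 250 bp (0.0831) and without replicate 2 (0.154).

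Under their summits the recurrent weak regions were AT-rich. The median GC content of the window of 50 bases on either side of the summit was 36.6%, against 42.6% in a window of the same size 500 bp to 1 side, and 62.8% of the regions had less GC under the summit than in that flank. The thresholded peaks had a median of 34.7% and the non-recurrent weak regions 39.6%. This difference in base composition accompanies every count of words below, and its part in them was not tested.

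Of the 12 words searched on both strands, 4 were more frequent under the recurrent weak summits than in the flanks. TATAAA, the TATA box word, was present at 743 summits (17.6%) and 11.2% of flanks, with odds of 1.69 and an adjusted p of 6.48e-16 by an exact McNemar test. It stood at 15.7% of promoter summits and 18.2% of the others, and at promoter summits alone the call was lost (odds 1.34, adjusted p 0.0745). AAAAAA, an A tract, was present at 25.8% of summits and 19.7% of flanks, with odds of 1.41 and an adjusted p of 1.88e-10. GGTCACAC was present at 21 summits (0.497%), with odds of 4.78 and an adjusted p of 0.00340, and TATCGATA at 28 (0.663%), with odds of 2.71 and an adjusted p of 0.0122. The last pair are words of housekeeping promoters, and here too they gathered at promoters: 15 of the 21 regions with GGTCACAC and 16 of the 28 with TATCGATA were promoter regions. These counts are small and the calls fragile. That of GGTCACAC was lost with flanks 1000 bp away (odds 1.59, adjusted p 0.412), with a match at 50 bp (adjusted p 0.157) and outside promoters (0.385). That of TATCGATA was lost with a match at 50 bp (0.147), with the strongest 15000 of each replicate (0.0539), in windows of 25 bp either side (0.286) and outside promoters (0.431).

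The other words behaved otherwise. AGGTCA, the core word bound by nuclear receptors such as the ecdysone receptor, was less frequent under the summits, at 1.78% against 2.53% of flanks, with odds of 0.700 and an adjusted p of 0.0412. CACACA was likewise lower, at 8.46% against 10.5%, with odds of 0.781 and an adjusted p of 0.00340. Both lost their calls with flanks 1000 bp away (adjusted p 0.147 for AGGTCA and 0.845 for CACACA), and over 11 alternatives AGGTCA kept its call in 4 and CACACA in 6. The word of the GAGA factor, GAGAG, stood at 11.9% of summits and 12.1% of flanks, and did not pass the threshold. Neither did the words of the E-box (CAGCTG), of Myc (CACGTG), of the early activator Zelda (CAGGTAG), of the initiator (TCAGTT) or of AP-1, TGANTCA.

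**Figure D4:**
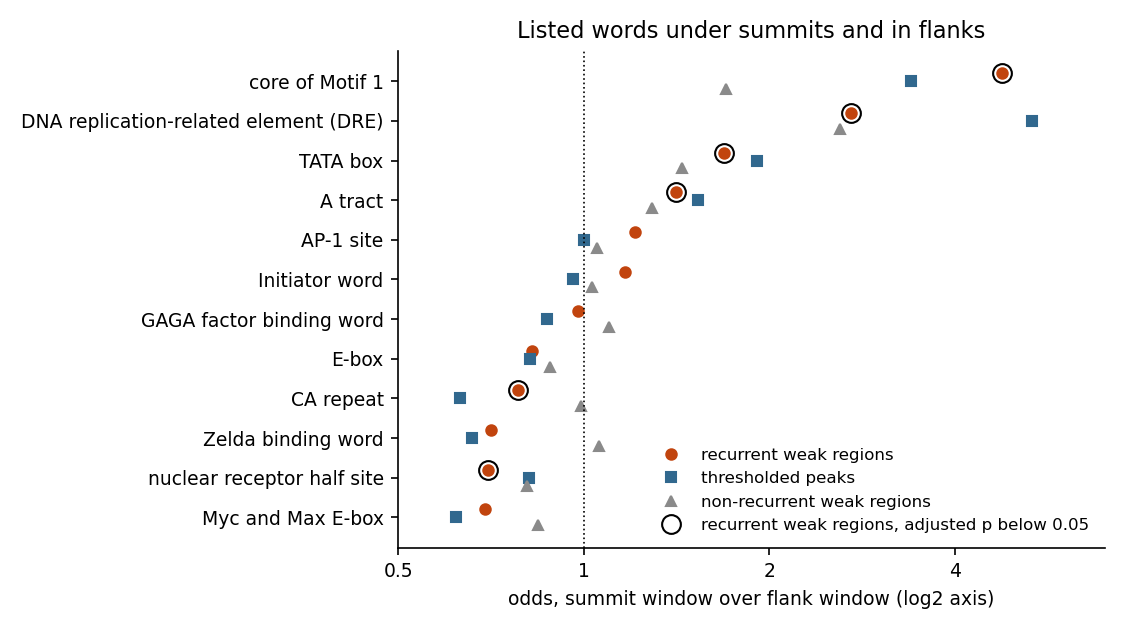
Odds of each of the 12 words under the summit over the flank, on a log2 axis, for recurrent weak regions, thresholded peaks and non-recurrent weak regions. Rings mark the 6 words whose difference from the flank passed an adjusted p of 0.05 in the recurrent weak regions. The core of Motif 1 and the DRE have the largest odds there, 4.78 and 2.71.

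None of the 12 words differed in frequency between the recurrent weak regions and the thresholded peaks after adjustment by Fisher's exact test. At an unadjusted p under 0.05 there were 3, all lower in the recurrent weak regions. TATCGATA stood at 0.663% against 1.21% (p 0.00312), GGTCACAC at 0.497% against 0.856% (p 0.0290) and TATAAA at 17.6% against 19.2% (p 0.0246). Set against only the thresholded peaks ranked below their median of 4498.5, TATCGATA (odds ratio 0.463, adjusted p 0.0119), GGTCACAC (0.445, adjusted p 0.0209) and GAGAG (0.829, adjusted p 0.0268) were lower. None of the 12 words passed the threshold against the non-recurrent weak regions, where TATAAA (odds ratio 1.13) and CACACA (0.853) came nearest, each with an adjusted p of 0.0719. Several alternatives did call words here. For regions over 1000 bp from a thresholded summit, TATAAA (1.25, adjusted p 0.000152) and AAAAAA (1.14, 0.0187) were higher, and CACACA (0.781, 0.00389), GAGAG (0.841, 0.0222) and CACGTG (0.542, 0.0475) lower. Without replicate 2, TATAAA and AAAAAA were higher and CACACA and GAGAG lower, with adjusted p of 0.00655 to 0.0278.

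Over all 2080 words of 6 bases, 303 (14.6%) were more frequent under the recurrent weak summits than in the flanks and 442 (21.2%) were less frequent, at an adjusted p of 0.05. The smallest p-values belonged to AT-rich words such as AAATAT, found at 26.5% of summits and 16.5% of flanks (odds 1.81, adjusted p 2.11e-25). The largest odds belonged to words of mixed composition. AGGGTA stood at 178 summits (4.22%) and in 62 flanks (1.47%), with odds of 2.98 and an adjusted p of 1.45e-12. AGTGTA stood at 323 summits (7.65%) and in 123 flanks (2.91%), with odds of 2.78 and an adjusted p of 3.16e-20. Together, 490 regions (11.6%) held at least 1 of them and 11 held both. The CG16964 and lncRNA:CR45443 windows printed above hold AGTGTA, as agtgta in the first and as its complement tacact in the second. Next came GTACAC (odds 2.37), GGTATA (2.33) and ACACTG (2.27).

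AGTGTA was spread over all the main classes. It stood at 6.56% of promoter summits, 7.76% of intron summits and 8.99% of intergenic summits, against 2.91%, 2.76% and 3.13% of their flanks. Its odds stayed between 2.12 and 3.08 under every alternative run, with adjusted p of 0.0260 at most. AGGGTA kept odds of 1.69 to 3.49, but did not pass the threshold at promoter summits alone (adjusted p 0.184) or with the 757 regions left by the strongest 15000 of each replicate (adjusted p 0.0594). The thresholded peaks held both words too, AGTGTA at 6.59% and AGGGTA at 3.65% of summits, and neither share differed from that of the recurrent weak regions after adjustment (adjusted p 0.192 and 0.405). So did the non-recurrent weak regions, with AGTGTA at 5.94% of summits and 3.52% of flanks, and AGGGTA at 3.32% and 2.01%. Both words were thus not particular to the recurrent weak regions, and their shares were not tested against those of the non-recurrent ones. The words most reduced under the recurrent weak summits included the GC-rich CTGGCC, at 3.46% of summits and 6.58% of flanks (odds 0.508, adjusted p 2.65e-09), and CCGGAG (odds 0.337, adjusted p 1.60e-07).

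Few words of 6 bases separated the recurrent weak regions from the thresholded peaks: 34 (1.63%) were more frequent and 42 (2.02%) less frequent. Those more frequent included GC-rich words such as CCCAGG, at 1.73% against 0.845% (odds ratio 2.07, adjusted p 0.00520), and GGAGGA, at 2.89% against 1.71% (odds ratio 1.71, adjusted p 0.00520). Words of mixed composition were among them too, such as ATTCGG, at 4.00% against 2.68% (odds ratio 1.51, adjusted p 0.0104). Those less frequent were led by TTAAAA, at 22.8% against 27.7% (odds ratio 0.769, adjusted p 2.20e-06), and included AGTAAC, at 3.88% against 5.62% (odds ratio 0.678, adjusted p 0.00520). Against only the thresholded peaks ranked below their median, 0 words passed Fisher's exact test after adjustment and 195 had an unadjusted p under 0.05.

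At the level of genes, 921 of 13945 protein-coding genes (6.6%) had a recurrent weak region within 500 bp of a TSS. Of these, 587 genes (4.21%) had no thresholded summit there. A thresholded summit marked 3436 genes (24.6%). The genes below come from 20 lists chosen by function with earlier results of these data known, and each count is to be read against those shares. A gene was counted if any of its TSSs had such a summit. Genes with many TSSs thus had more chances to be counted, and the shares were not adjusted for this.

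The highest shares of genes with a recurrent weak region were counted in the ecdysone response and BTB lists, which share br. Of 25 ecdysone response genes, 8 (32.0%, 95% interval 17.2 to 51.6) had one, and of 16 genes for BTB transcription factors, the family of Fru, 5 (31.2%, 14.2 to 55.6) did. In both lists most of those genes also had a thresholded summit: Eip63E, Eip74EF, Eip63F-1, Sox14, usp and br in the first, and br, chinmo and fru in the second. High shares in these lists were not particular to the weak regions. A thresholded summit marked 15 of the 25 ecdysone response genes and 10 of the 16 BTB genes, against 24.6% of all protein-coding genes. The weak region alone was counted at 2 of the 25 and 2 of the 16, against 4.21% of all. Broad, from br, is a BTB factor of the pupal switch, and usp encodes the partner of the ecdysone receptor. With no thresholded summit within 500 bp of a TSS were EcR, which encodes the ecdysone receptor itself, and rpr, a cell death gene. So were mamo, a BTB factor needed in the germline, and bab2, a BTB factor of leg and abdomen patterning. Thresholded summits did lie elsewhere in EcR, 12 beside 9 recurrent weak regions over 81215 bp, and in mamo, 7 beside 12.

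The region at the EcR TSS held pooled rank 9514 and ranks 22841, 7296 and 8755 in replicates 1, 2 and 3. That at rpr held pooled rank 9996 and ranks 10040, 15493 and 10693. The region at mamo, 123 bp from a TSS, held pooled rank 10733 and ranks 16853, 6314 and 15160, and that at bab2 held pooled rank 11594 and ranks 21507, 7828 and 20613. At EcR, mamo and bab2, then, replicate 2 gave the best of the 3 replicate ranks and replicate 1 the poorest.

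Lists of growth genes spread widely around the 6.6% of all protein-coding genes. Of 93 cytoplasmic ribosomal protein genes, 11 (11.8%, 6.73 to 19.9) had a recurrent weak region, where 61 (65.6%) had a thresholded summit. The 8 with the weak region alone included RpS9, whose region lay 5 bp from the TSS with ranks 12256, 8109 and 8784 in replicates 1, 2 and 3. RpS15, RpL15 and RpL10 were others, and the region at RpL15 stood 1254806 bp from any thresholded summit. Its 3 replicate summits lay 83, 54 and 94 bp from the pooled one, near the limit of 100 bp. Of 73 mitochondrial ribosomal protein genes, 2 (2.74%) had a recurrent weak region, mRpS18B and mRpS5, against 34 with a thresholded summit. Insulin and TOR signalling genes counted 4 of 18 (22.2%), among them Akt, the kinase downstream of the insulin receptor, and S6k and sgg, which had both kinds of summit. Cell cycle and replication genes counted 4 of 34 (11.8%), including Cdk4 and aurB, a mitotic kinase gene.

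Genes of cell identity were mixed. Imaginal disc selector genes counted 4 of 27 (14.8%, 5.92 to 32.5). Of these ap, salr and Dll, which specify wing and leg territories, had the weak region alone, and ptc had both. The region at ap held pooled rank 9886 and ranks 9950, 14506 and 8372 in replicates 1, 2 and 3, with its nearest thresholded summit 53741 bp away. In the sex determination list 3 of 21 genes (14.3%) had one: ix, which encodes a partner of Doublesex, alone, and Sxl and fru beside a thresholded summit. Among 24 pan-neural and synaptic genes, ple, the tyrosine hydroxylase gene of dopamine neurons, had the weak region alone, at pooled rank 11909. Among 28 axon guidance genes this held for sli, and among 27 Polycomb and Trithorax group genes for Pc. Notch pathway genes counted 2 of 20, mam and numb, and heat-shock and chaperone genes 1 of 22, Hsc70-3, all of them with a thresholded summit too.

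Lists of differentiated tissues lay on either side of the share of all genes. Of 121 cuticle protein genes, 3 (2.48%, 0.847 to 7.04) had a recurrent weak region, TwdlE, Cpr49Ac and Cpr51A, and 1 had a thresholded summit. Of 39 digestive protease genes, 2 (5.13%), Jon65Aiv and Jon65Aiii, had the weak region alone. The fat body and storage list counted 2 of 18 (11.1%, 3.10 to 32.8), Fbp1, which encodes a receptor for storage proteins, and LpR2, a lipoprotein receptor gene. Muscle structure genes counted 3 of 21 (14.3%, 4.98 to 34.6), of which Act87E had the weak region alone. None of 14 immune effector genes, 10 salivary glue genes and 9 ecdysteroid synthesis genes had one. The lists are short, and a count of 0 of 9 allows a share of up to 29.9% by the 95% Wilson interval.

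**Figure D5:**
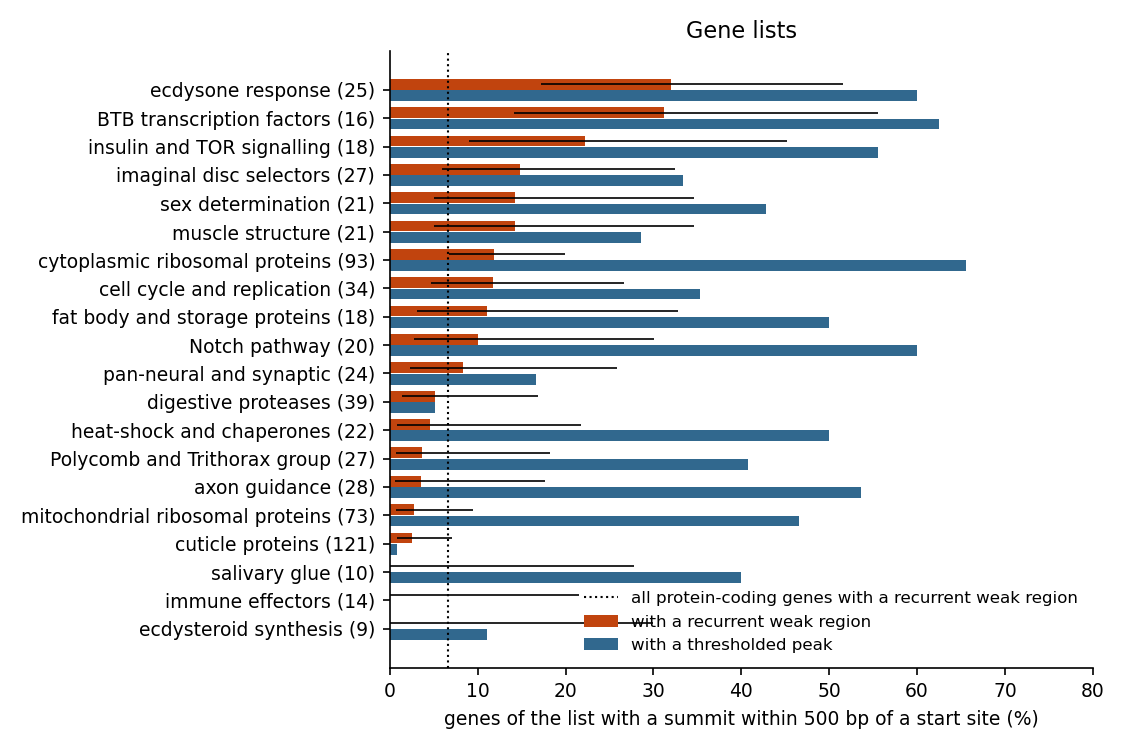
Share of genes in each of 20 lists with a recurrent weak region or with a thresholded peak within 500 bp of a TSS, with the number of genes in brackets. Thin lines are 95% Wilson intervals for the recurrent weak regions, and the dotted line is the share of all protein-coding genes with one, 6.6%. Ecdysone response genes (32.0%) and BTB transcription factors (31.2%) stand highest for the recurrent weak regions.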

How the data were processed

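Chromatin immunoprecipitation and sequencing of 3 biological replicates of 1 group gave lists of regions. According to the notes that accompany the deposited files, the authors made each list from alignments of ChIP reads together with a control alignment, 1 list of 30000 regions per replicate and 1 from the pooled reads. The sources used here name no aligner, no peak caller and no reproducibility cutoff for the thresholded list. The deposited signal value is a score with no fixed range, and the deposited −log10 q-value is the authors' own. Both were used only to describe, rank or filter regions within 1 list. The lists hold no read counts, so depth is unknown. Whether replicates came from separate cultures of flies is not stated beyond their being biological replicates.

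Positions are on dm6, 1-based. Genes and TSSs came from Ensembl BDGP6.54, release 115, which has dm6 coordinates, and bases from the RefSeq Release 6 genome. A summit was assigned to the first class it met of promoter (500 bp either side of a TSS), then 5' UTR, then coding sequence, then 3' UTR, then another exon, intron and intergenic DNA. Shares were compared by two-sided Fisher's exact tests, and words within 50 bp of the summit with a window centred 500 bp to 1 randomly drawn side by exact McNemar tests. Odds are regions with the word under the summit alone over those with the word only in the flank, after adding a small constant to each. P-values were adjusted by Benjamini-Hochberg within each family, with a threshold of 0.05. Rank bins of 1000 were combined by Mantel-Haenszel. Wilson intervals of 95% cover the sampling of regions or genes only, and neighbouring regions are not independent. The word test was checked on simulated data. Simulated summit and flank windows shared the same base composition, so the check does not cover the difference in GC content found here.

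The regions named are the 15 of highest pooled signal, the 10 whose weakest replicate rank was best, the strongest isolated regions, the strongest in each other class, those in fru, those at the threshold, and up to 4 genes per list with such a region and no thresholded summit. Words AGGGTA and AGTGTA and their regions were singled out after their values were seen. The members, gene lists, words and rules were chosen with earlier results of these data known. Of the listed symbols, 7 had no match among protein-coding genes and were not counted. No sequence of arm 2R is printed. Alternatives are given in the closing section. The software was Python 3.11.15 with numpy 2.4.6, scipy 1.17.1, pandas 2.3.3 and matplotlib 3.10.9.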

Additional observations from a re-analysis of the deposited data

How the results depend on the processing

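No paired analysis was possible because the 3 samples form 1 group. The number of recurrent weak regions depends on the definition: 1950 with a match at 50 bp, 9089 at 250 bp, 757 with the strongest 15000 of each replicate list, and 6078 to 7528 when a match in 2 replicates sufficed, leaving out 1 in turn. The lower promoter share and the higher coding share against thresholded peaks kept their direction and call under every alternative run, with odds ratios of 0.373 to 0.522 and of 4.13 to 7.39. The promoter odds ratio against non-recurrent weak regions was 1.35 with a match at 250 bp, 0.861 for regions over 1000 bp from a thresholded summit, 0.996 to 1.23 leaving out 1 replicate (1.23 without replicate 1), and 0.634 within rank bins. Chosen after seeing the data, it was 0.695 within rank bins with a match at 50 bp, 0.595 with both sets over 1000 bp from a thresholded summit, and 0.651 for ranks up to 16000 without bins. The coding odds ratio under these was 1.20 within rank bins, 1.14 (50 bp), 0.760 (250 bp), 1.05 and 1.21, none past the threshold. Here the cause was not tested, beyond the bins' own construction, which sets regions of equal rank side by side. Intergenic odds ratios turned to 1.11 over 1000 bp from a thresholded summit, 1.28 and 1.29 within rank bins, 1.30 at 50 bp and 1.23 up to rank 16000. Also turned were introns at 250 bp (0.991), GAGAG against non-recurrent weak regions at 250 bp (1.12), and 3' UTRs, 0.860 against thresholded peaks with the strongest 15000 and 1.14 against distant non-recurrent weak regions.

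Of the 12 words, 6 differed from the flanks, 2 with a match at 50 bp, 3 in promoters alone, 3 outside promoters, and 4 to 7 leaving out 1 replicate. Against thresholded peaks 0 differed, but 4 did with a match at 250 bp, 2 for distant regions, 3 against the lower-ranked thresholded peaks and 4 to 5 leaving out 1 replicate. The 745 words of 6 bases that differed from flanks became 323 with a match at 50 bp, 48 with the strongest 15000, 384 in windows of 25 bp either side, 30 in promoters and 595 to 990 leaving out 1 replicate. The 76 against thresholded peaks became 19 (50 bp), 934 (250 bp), 1 (strongest 15000), 11 (distant regions), 0 (lower-ranked peaks, with 195 at an unadjusted p under 0.05), 3 (25 bp windows), 3 (promoters), 49 (outside promoters) and 162 to 621 leaving out 1 replicate. These settings also change how many regions are compared.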

Other observations

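Some long genes held many recurrent weak regions. The most lay in kirre, an immunoglobulin-family gene of muscle fusion, with 23 beside 33 thresholded summits over 394149 bp. SKIP held 17 beside 17, and rdx, which encodes a BTB adaptor of ubiquitin ligases in Hedgehog signalling, held 13 beside 13 over 64997 bp. The BTB genes br and mamo each held 12, beside 8 and 7 thresholded summits. The span of br lies within that of Mur2B, which held 15, so its regions are not particular to br. Rbp6, an RNA-binding protein gene, held 8 recurrent weak regions beside 1 thresholded summit. Longer genes offer more room for regions, and no test of these counts was made.

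The median gap between neighbouring recurrent weak regions was 13641 bp, and 4115 bp between thresholded peaks. Gaps within 1000 bp made up 4.98% among the recurrent weak regions and 19.7% among the thresholded peaks. The sets hold 4222 and 8996 regions, and a larger set has shorter gaps by its number alone. A set of 111 (2.63%) lay more than 50000 bp from any thresholded summit, against 3.00% of the non-recurrent weak regions. Promoters held 27 of the 111, and 22.8% of all recurrent weak regions. On 2L, which held 18.5% of all, lay 31 of the 111. The other arms held 23 (3R), 20 (X), 18 (2R), 18 (3L) and 1 (chromosome 4). Among the 111 were regions at the ribosomal protein genes RpL15 and mRpS5, the second 1475049 bp from a thresholded summit. The region at mRpS5 had pooled rank 18157 and a −log10 q-value of 0.890, a q-value above 0.05. Both regions lie toward the end of arm 3L, at positions 27267407 and 24537552 of 28110227 bp. What their distances owe to that part of the arm was not tested.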
